A study of Mus musculus with 8 samples.

Results

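TGF-beta and activin are secreted dimeric proteins that signal between cells, and their genes were examined here in 2 fractions of 4T1, a transplantable mouse mammary carcinoma line. The genes were 10, taken by symbol from the table of 16341 counted genes: the ligand genes Tgfb1, Tgfb2 and Tgfb3, the activin and inhibin subunit genes Inhba and Inhbb, the receptor genes Tgfbr1, Tgfbr2 and Tgfbr3, and the SMAD genes Smad3 and Smad7. RNA was sequenced from 4T1-Sca1+ cells, which carry the surface protein SCA1, and from 4T1-Sca1- cells, which lack it, with 4 libraries in each group. The fractions were told apart by that marker, and the labels name no treatment, time point or engineered allele. The source label names the parental line and magnetic sorting, whereas the protocol speaks of stained tumor and the labels give a CD45-negative flow cytometry gate. The labels do not say whether the libraries of a group came from separate sorts, so the spread between them may be technical, and a sorted fraction is a mixture that can be impure. The study reported higher Tgfb3 in SCA1+ cells than in their controls, and proposed it as a possible tumor-derived mediator of granulocytic cell education. The Tgfb3 values below come from the study's own libraries of these cells, so they are no independent evidence of that rise.

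All 3 TGF-beta proteins are made as latent complexes that must be released before they bind. The active dimer binds the type II receptor (Tgfbr2), often after capture by the co-receptor betaglycan (Tgfbr3), and the type II receptor then activates the type I receptor (Tgfbr1), which phosphorylates SMAD2 and SMAD3. Activins, dimers of the subunits encoded by Inhba and Inhbb, use other receptors of the same family but the same SMADs. Smad7 encodes an inhibitor that blocks the type I receptor and is itself induced by the pathway. In mammary carcinoma the pathway is known for restraining growth in early lesions and for promoting invasion, matrix production and immune suppression in advanced ones.

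The promoters of 3 ligand genes are shown because these genes differ in what lies before their start and because Inhba and Tgfb1 changed in opposite directions. RefSeq promoters (GRCm38.p6) were examined for 7 of the 10 genes, in 8 windows of 250 bases before and 50 after the start. None was at hand for Tgfb3 or Tgfbr3, and Smad7 was left out of the promoter search. Each line gives the 250 bases before the start, 5′ to 3′ on the strand of the gene. Capitals mark matches, on either strand, to a SMAD box (CAGAC), a GC box (GGGCGG) or a TATA box (TATAAA), where overlapping letters would be capitalized once.
Inhba, chr13:16011601-16011850, plus strand: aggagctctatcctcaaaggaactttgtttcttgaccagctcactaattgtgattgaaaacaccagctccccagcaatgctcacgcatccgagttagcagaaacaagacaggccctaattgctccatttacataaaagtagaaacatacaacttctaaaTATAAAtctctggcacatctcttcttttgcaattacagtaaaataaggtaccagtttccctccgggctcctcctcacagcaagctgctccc
Tgfb1, chr7:25686752-25687001, plus strand: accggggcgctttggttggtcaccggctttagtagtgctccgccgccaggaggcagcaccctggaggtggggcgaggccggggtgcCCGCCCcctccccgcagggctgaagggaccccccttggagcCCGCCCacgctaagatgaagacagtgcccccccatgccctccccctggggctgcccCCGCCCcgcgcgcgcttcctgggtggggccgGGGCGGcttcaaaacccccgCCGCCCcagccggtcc
Tgfb2, chr1:186705990-186706239, minus strand: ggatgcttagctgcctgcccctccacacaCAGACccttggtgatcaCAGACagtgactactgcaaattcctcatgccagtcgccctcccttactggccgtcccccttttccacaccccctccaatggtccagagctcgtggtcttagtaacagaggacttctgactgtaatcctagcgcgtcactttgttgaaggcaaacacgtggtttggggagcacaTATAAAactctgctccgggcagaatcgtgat
The Inhba window held a TATA box beginning 91 bases before the start and no SMAD box or GC box. Its GC content was 47.7%, against a median of 52.7% over 32851 promoters. Tgfb1 had 6 GC boxes in its window, 5 of them before the start, and a GC content of 77.0%. Tgfb2 had SMAD boxes 221 and 204 bases before the start and a TATA box 31 bases before it. Of all promoters of the same length, 49.59% held a SMAD box, 35.66% a GC box and 13.62% a TATA box, so such matches are common and are given as a description. The Tgfbr2 window and the window of the second start of Tgfbr1 each held 1 SMAD box, and the first Tgfbr1 window and the Smad3 window each held 2 GC boxes, while Inhbb held 1 GC box. Neither an AP-1 site (TGANTCA) nor a cAMP response element (TGACGTCA) nor the SMAD palindrome (GTCTAGAC) was found in any of the 8 windows. These motifs were in 7.81%, 1.79% and 0.21% of all promoters. The windows do not include Smad7, Tgfb3 or Tgfbr3, so their absence is not known for those genes.

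Each library held between 13561804 and 16968215 counts. The 4T1-Sca1+ replicate 3 library stood apart from the others of its group: its counts differed from theirs by a chi-square per degree of freedom of 7.366 to 10.68, against 2.257 to 4.173 among the other 3. In that library the deviation of a gene from its group mean rose with the GC content of its transcript across 11616 genes (r = 0.562). In 4T1-Sca1- replicate 2 it rose less (r = 0.383), and in the other libraries r was between -0.303 and -0.026. Values below are normalized counts, that is, counts divided by the size factor of the library. Differences were tested with the quasi-likelihood test of edgeR over 11717 genes, and a gene was called at an adjusted p under 0.05. At this threshold 61.5% of all genes tested were called, 31.3% higher and 30.2% lower in 4T1-Sca1+ cells, so a call by itself is not unusual in these data.

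Of the 10 genes, which all passed the low-count filter, 5 were higher in 4T1-Sca1+ cells (Tgfb1, Tgfb3, Tgfbr1, Tgfbr3 and Smad3), 3 were lower (Inhba, Tgfbr2 and Smad7), and Tgfb2 and Inhbb were not called. For 7 of the 10 the values of the fractions were fully separate, where this held for 54.7% of all genes tested. With 8 of 10 called against 61.5% of all genes, the share says little of these genes as a set. The median log2 fold change of the 10 was 0.32, against 0.01 over all genes tested. The size of 2 differences set them apart from the others. Tgfb3 was 2.07-fold higher and Inhba 2.37-fold lower in 4T1-Sca1+ cells, and the absolute log2 fold changes were larger than those of 94.3% and 95.9% of the genes tested. The remaining 8 genes differed by less than 1.5-fold.

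**Figure D1:**
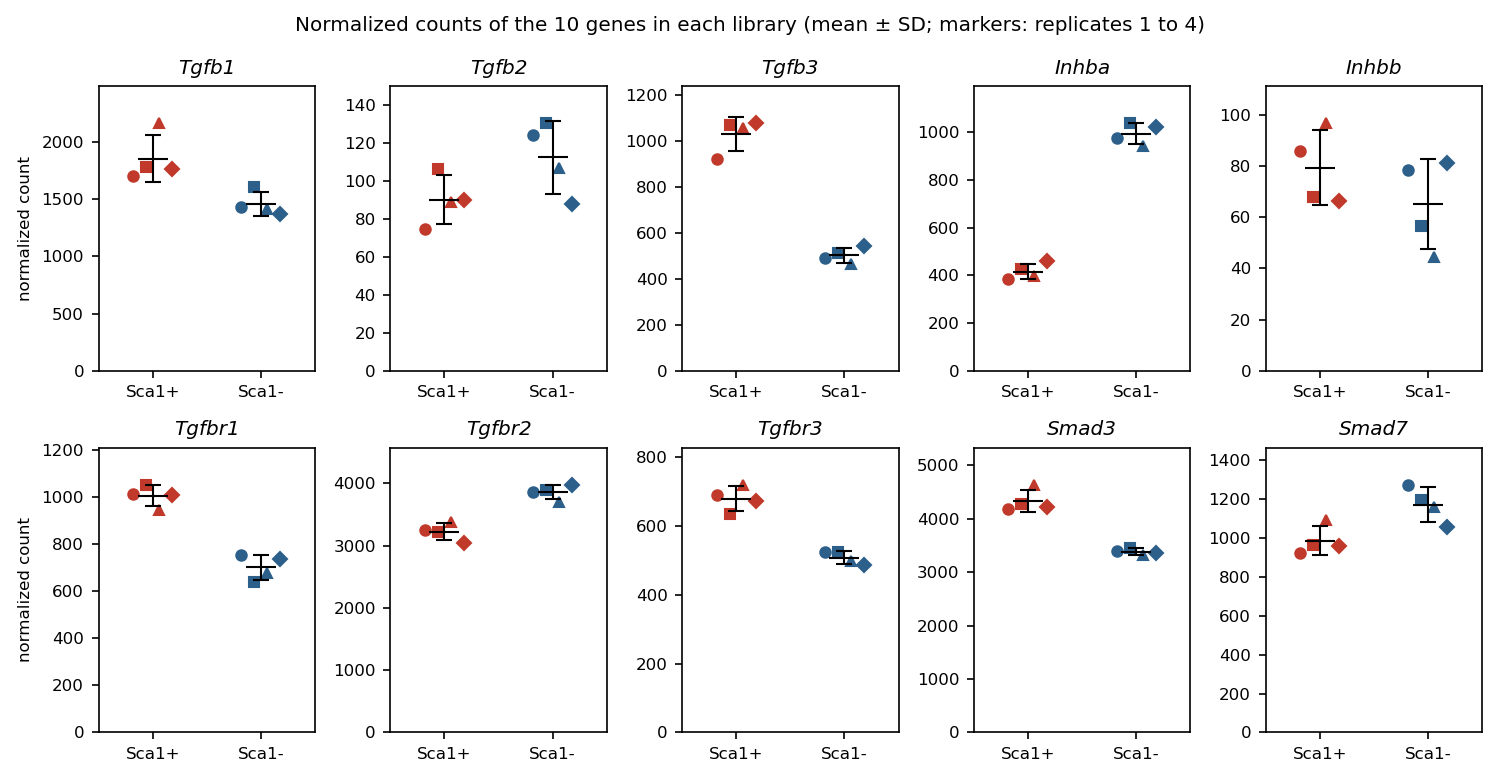
Normalized counts of the 10 genes in each library, on linear axes from 0, with points for the libraries (circle, square, triangle and diamond for replicates 1 to 4), and a horizontal bar with its error bar for the mean ± SD of the 4 libraries. The groups are far apart for Tgfb3 and Inhba, and the points of the groups overlap for Tgfb2, Inhbb and Smad7.

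Tgfb3 encodes a ligand that in the mammary gland is known for its rise at involution. Tgfb3 (ENSMUSG00000021253; GRCm38 chromosome 12, 86056745 to 86079041, minus strand) had 919.5, 1067.0, 1054.3 and 1076.5 normalized counts across the 4T1-Sca1+ libraries against 491.8, 513.4, 465.3 and 541.0 across the 4T1-Sca1- libraries. Every 4T1-Sca1+ library was above every 4T1-Sca1- library, although replicate 1 lay below the other 3 of its group. The means were 1029 ± 73.8 and 502.9 ± 32.1 (SD, n = 4), and edgeR gave a log2 fold change of 1.05 ± 0.06 (SE; adjusted p 2.82e-10). Only 569 tested genes had a higher log2 fold change. The span of Tgfb3 overlaps that of Ttll5 on the opposite strand, with 0 shared exon bases. A further 163 and 257 exon bases lie opposite Gm37804 and Gm48008, transcripts that are not in the count table, and the use of strand in counting is not given in the sources used here.

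Tgfb1, the most abundant of the 3 ligand genes, encodes the best studied TGF-beta. Tgfb1 (ENSMUSG00000002603; chromosome 7, 25687002 to 25705077, plus strand) had 1704.6, 1780.0, 2162.4 and 1766.1 normalized counts across the 4T1-Sca1+ libraries against 1429.6, 1608.9, 1414.8 and 1366.3 across the 4T1-Sca1- libraries. The groups did not overlap, but the gap between them was small. The highest value of each group was in the library whose deviations rose with GC content, 4T1-Sca1+ replicate 3 and 4T1-Sca1- replicate 2. The difference was 0.36 ± 0.07 on the log2 scale (adjusted p 0.000192 by edgeR), and leaving out 4T1-Sca1+ replicate 3 reduced it to 0.28, where it was still called.

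Tgfb2, the ligand whose promoter holds the pair of SMAD boxes, was scarce in both fractions. It (ENSMUSG00000039239; chromosome 1, 186622792 to 186705989, minus strand) had 74.95, 106.5, 88.77 and 90.14 normalized counts across the 4T1-Sca1+ libraries against 124.2, 130.4, 106.9 and 87.89 across the 4T1-Sca1- libraries. These ranges overlapped, since 4T1-Sca1- replicate 4 lay at the level of the 4T1-Sca1+ libraries. The log2 fold change was -0.32 ± 0.14, and the adjusted p of 0.0509 by edgeR was just above the threshold. It fell below the threshold under 5 of 19 alternatives, among them those without 4T1-Sca1+ replicate 2 (-0.40, adjusted p 0.0209 by edgeR) and without 4T1-Sca1- replicate 4 (-0.41, adjusted p 0.0129 by edgeR). The sign was negative under each alternative run, from -0.41 to -0.24, whereas the call depended on the setting.

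Inhba encodes the beta A subunit, whose dimer is activin A, and it showed the largest difference among the 10 genes. Inhba (ENSMUSG00000041324; chromosome 13, 16011851 to 16031621, plus strand) had 384.8, 426.0, 396.0 and 458.6 normalized counts across the 4T1-Sca1+ libraries against 977.0, 1038.0, 940.6 and 1022.7 across the 4T1-Sca1- libraries. The lowest 4T1-Sca1- library was more than 2 times the highest 4T1-Sca1+ library. The means were 416.3 ± 33.1 and 994.6 ± 44.4 (SD, n = 4), with a log2 fold change of -1.24 ± 0.06 (adjusted p 2.09e-11 by edgeR). Among all tested genes 69 had a lower value. Inhba was also put by the study in its SCA1-negative signature, which was drawn from these same libraries, so that its place there is no independent evidence of its direction.

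Inhbb, for the beta B subunit of activin B, had the fewest counts of the 10 genes. It (ENSMUSG00000037035; chromosome 1, 119415465 to 119422248, minus strand) had 85.91, 68.04, 96.75 and 66.51 normalized counts across the 4T1-Sca1+ libraries against 78.31, 56.47, 44.53 and 81.04 across the 4T1-Sca1- libraries. The groups overlapped broadly, and the log2 fold change of 0.29 ± 0.18 was not called (adjusted p 0.164 by edgeR). Its reads were few, 336 in all 4T1-Sca1+ libraries together and 248 in the others, and its values varied more between libraries than those of any other of the 10 genes, with a biological coefficient of variation of 0.122. With GC-corrected offsets the value was 0.01. These offsets remove trends with GC content around the mean of all libraries. They can therefore also take out real differences between the fractions that go with GC content.

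Tgfb3 and Inhba differed between the fractions in opposite directions. The ratio of Inhba to Tgfb3 normalized counts was between 0.376 and 0.426 in the 4T1-Sca1+ libraries and between 1.89 and 2.022 in the 4T1-Sca1- libraries. Levels of different genes were compared per kilobase of annotated exon. On that scale Tgfb3 made up 43.6%, 45.9%, 41.2% and 46.5% of the summed level of the 3 TGF-beta genes in 4T1-Sca1+ cells and 32.3%, 30.8%, 31.5% and 35.9% in 4T1-Sca1- cells. Tgfb1 supplied most of the rest, 53.4% ± 2.63 against 63.2% ± 1.77, and Tgfb2 supplied 2.3% ± 0.3 against 4.2% ± 0.6 (SD, n = 4). The summed level was 687.4 ± 54.37 per kilobase in 4T1-Sca1+ cells beside 456.6 ± 25.17 in the 4T1-Sca1- fraction, and the groups did not overlap. For the activin subunits the sum ran the other way, with 83.8 ± 2.98 per kilobase against 170.9 ± 9.41. Inhba made up 77.7% ± 4.35 of that sum in 4T1-Sca1+ cells beside 91.1% ± 2.11 in the 4T1-Sca1- fraction. These shares depend on the exon length taken for each gene. With the longest transcript of each gene the Tgfb3 share was 29.3% against 20.2%, so the order of the fractions held while the level of the share did not.

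**Figure D2:**
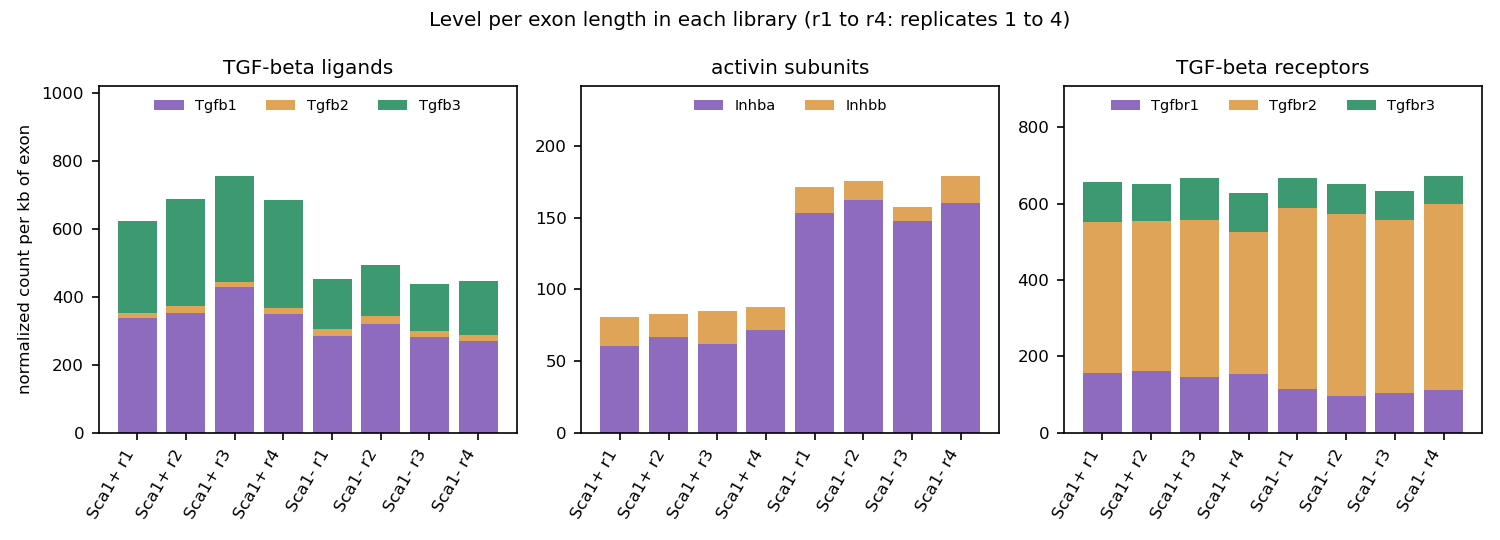
Stacked bars of the level per kilobase of exon of the TGF-beta ligand genes, the activin subunit genes and the TGF-beta receptor genes in each of the 8 libraries (r1 to r4 are replicates 1 to 4), on linear axes from 0. The ligand bars are taller in 4T1-Sca1+ libraries and the activin bars in 4T1-Sca1- libraries, while the receptor bars have similar heights but a different make-up.

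The 3 receptor genes changed in different directions. Tgfbr2, the ligand-binding type II receptor and the most abundant of them, was lower in 4T1-Sca1+ cells. Tgfbr2 (ENSMUSG00000032440; chromosome 9, 116084293 to 116175360, minus strand) had 3254.7, 3221.7, 3377.3 and 3037.7 normalized counts across the 4T1-Sca1+ libraries against 3864.0, 3891.3, 3705.7 and 3979.1 across the 4T1-Sca1- libraries. All 4T1-Sca1+ libraries were below all 4T1-Sca1- libraries, by little (log2 fold change -0.25 ± 0.04, adjusted p 0.000124 by edgeR). Tgfbr1, the type I receptor that carries the kinase acting on SMADs, was higher. It (ENSMUSG00000007613; chromosome 4, 47353222 to 47414931, plus strand) had 1014.5, 1053.2, 945.6 and 1008.2 normalized counts across the 4T1-Sca1+ libraries against 752.5, 637.6, 676.8 and 737.4 across the 4T1-Sca1- libraries. The groups were well separated (log2 fold change 0.53 ± 0.06, adjusted p 7.16e-07 by edgeR). Tgfbr3, which encodes betaglycan, a co-receptor that presents ligand and also binds inhibin, was higher as well. This gene (ENSMUSG00000029287; chromosome 5, 107106570 to 107289629, minus strand) had 688.2, 633.1, 719.1 and 672.1 normalized counts across the 4T1-Sca1+ libraries against 522.4, 522.6, 496.5 and 485.1 across the 4T1-Sca1- libraries, again without overlap. The difference was 0.43 ± 0.06 on the log2 scale (adjusted p 5.31e-06 by edgeR). Of its exon bases 297 are shared with Gm43422, a transcript on the same strand that is not in the count table.

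Per kilobase of exon the 3 receptor genes summed to 651.1 ± 16.69 in 4T1-Sca1+ cells beside 656.2 ± 18.19 in the 4T1-Sca1- fraction (SD, n = 4), a difference smaller than either spread. Within this sum Tgfbr2 took 60.4% ± 1.13 in 4T1-Sca1+ cells beside 71.9% ± 0.88 in the 4T1-Sca1- fraction. Tgfbr1 took 23.7% ± 1.40 against 16.3% ± 1.00, and Tgfbr3 took 15.9% ± 0.74 against 11.8% ± 0.54. None of these 3 shares overlapped between the groups.

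Smad3, the transcription factor that the type I receptor activates, was the most abundant of the 10 genes per kilobase of exon. Smad3 (ENSMUSG00000032402; chromosome 9, 63646767 to 63757994, minus strand) had 4188.8, 4275.8, 4635.1 and 4208.7 normalized counts across the 4T1-Sca1+ libraries against 3397.0, 3457.0, 3313.9 and 3355.8 across the 4T1-Sca1- libraries. It was higher in each 4T1-Sca1+ library than in any 4T1-Sca1- library (log2 fold change 0.37 ± 0.04, adjusted p 1.34e-06 by edgeR). Smad7, the inhibitor that feeds back on the receptor, was lower. It (ENSMUSG00000025880; chromosome 18, 75367529 to 75395935, plus strand) had 925.0, 965.4, 1094.2 and 957.4 normalized counts across the 4T1-Sca1+ libraries against 1274.9, 1197.2, 1162.1 and 1054.7 across the 4T1-Sca1- libraries. The ranges overlapped, as 4T1-Sca1+ replicate 3 was above 4T1-Sca1- replicate 4. The difference was -0.24 ± 0.06 on the log2 scale (adjusted p 0.00312 by edgeR). It grew to -0.45 with GC-corrected offsets, the only alternative that moved a called value among the 10 by more than 1.5 times. Those offsets also change differences between the fractions that go with GC content.

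**Figure D3:**
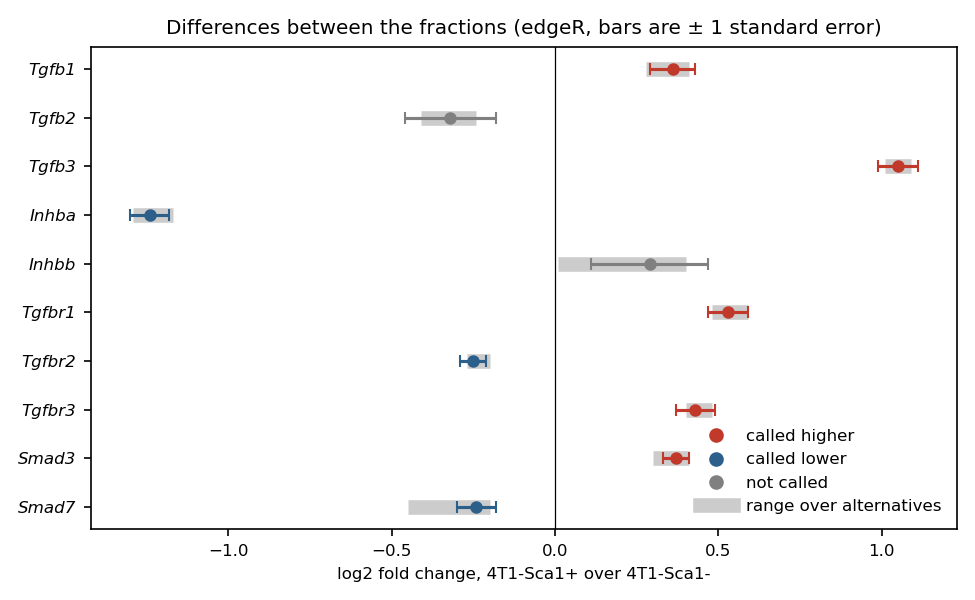
Log2 fold change of each of the 10 genes (4T1-Sca1+ over 4T1-Sca1-) with bars of ± 1 standard error from edgeR, and grey bands for the range over the main fit and the alternatives. Tgfb3 at 1.05 and Inhba at -1.24 lie farthest from 0, and the band of Inhbb reaches 0.01.

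On the scale of level per kilobase of exon, the order in 4T1-Sca1+ cells was Smad3 (781 ± 37.7), Tgfbr2 (394 ± 17.1), Tgfb1 (368 ± 41.4), Tgfb3 (304 ± 21.8), Smad7 (218 ± 16.5), Tgfbr1 (154 ± 6.82), Tgfbr3 (104 ± 5.47), Inhba (65.2 ± 5.18), Inhbb (18.6 ± 3.43) and Tgfb2 (15.6 ± 2.23), as mean ± SD of 4 libraries. Tgfbr2 and Tgfb1 were neighbours whose library values overlapped, and the same was true of Inhbb and Tgfb2. In 4T1-Sca1- cells Smad3 (610 ± 11) and Tgfbr2 (471 ± 13.9) again came first. They were followed by Tgfb1 (289 ± 21.1) and Smad7 (259 ± 20.2), whose library values overlapped. Next came Inhba (156 ± 6.94) and Tgfb3 (149 ± 9.5), whose library values overlapped as well. The lowest were Tgfbr1 (107 ± 8.19), Tgfbr3 (77.4 ± 2.89), Tgfb2 (19.4 ± 3.3) and Inhbb (15.3 ± 4.13), and the last pair overlapped. Inhba thus stood below Tgfbr3 in 1 fraction and above Tgfbr1 in the other.

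The genes whose log2 CPM followed each of the 10 most closely over the 8 libraries were found as a description. With 2 groups of libraries a high r mostly reflects the shared difference between groups, and 1084 genes had r above 0.95 with Tgfb3. Tgfb3 was closest to Serpine2 (r = 0.998), a secreted protease inhibitor, and St3gal1 (r = 0.997). For Tgfb1 the nearest was Furin (r = 0.997), the protease that cleaves the TGF-beta precursor, and then Pear1 (r = 0.992). Furin had 5974.6 normalized counts in 4T1-Sca1+ replicate 3 against 4809.4 to 4886.1 in the others of that group, so it shared with Tgfb1 the high value in that library, and its log2 fold change went from 0.35 to 0.12 with GC-corrected offsets. Inhba was nearest to Nosip and Stip1 (r = 0.996 for both), Tgfbr1 to Spred1 (0.995) and Fdps (0.994), Tgfbr2 to Map2k1 (0.993) and Fam120a (0.986), and Tgfbr3 to Cdk5r1 (0.997) and Map4k1 (0.993). Smad3 followed Pimreg and Sdc4 (r = 0.997 for both) and Smad7 followed Sox9 (0.974) and Crebbp (0.97). The scarce genes had looser neighbours, Zfp120 (0.93) and Tcf7l2 (0.915) for Tgfb2 and Kctd18 (0.96) and Tmem260 (0.937) for Inhbb.

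The remaining genes of the pathway were read from 8 lists of 126 genes. Of these, 79 were tested, 34 were higher and 33 lower in 4T1-Sca1+ cells, and 12 were not called. The median log2 fold change of the 79 was 0.00, and 43.0% of them were called higher and 41.8% lower, beside 31.3% and 30.2% over all genes tested. The counts given below for each list are to be read beside these same shares over all genes, and the lists are small. The SCA1-negative and SCA1-positive signatures of the study were read as 186 and 188 gene symbols, where 11717 genes were tested. The SCA1-negative signature held 9 of the 126 genes and the SCA1-positive signature held 0. Those 9, which include Itgb6, Fst, Nog, Ldlrad4, Ccn1, Ccn2, Angptl4 and Tnc, were chosen on these libraries, and their direction is therefore not independent evidence.

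Among genes that store and activate latent TGF-beta, 8 of 14 tested were called higher, 4 lower and 2 not called (median 0.22). Over all genes tested 31.3% were called higher and 30.2% lower. Ltbp4, a latent TGF-beta binding protein of the matrix, had 5216.1, 5348.7, 6601.0 and 5369.2 normalized counts against 2601.4, 2951.8, 2612.6 and 2532.9 (log2 fold change 1.09 ± 0.07). Itgb3, the integrin subunit that the study used as CD61, was higher by 0.93 ± 0.06 on the log2 scale. Ltbp1 (0.29), Ltbp2 (0.20) and Ltbp3 (0.66), named after their values were seen, were also called higher. With GC-corrected offsets the Ltbp2 call was lost (0.02) and Ltbp3 stood at 0.37, so 3 of the 4 genes of that family were higher under each alternative run. Itgb6, a subunit of an integrin that releases active TGF-beta, went the other way, with 77.8 to 88.75 normalized counts across the 4T1-Sca1+ libraries against 230.0 to 272.7 across the 4T1-Sca1- libraries (log2 fold change -1.61 ± 0.10). Thbs1, a matrix protein that can also activate the latent complex, fell by 0.47 on the log2 scale from a high level.

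Other ligands of the superfamily were scarce. Of 28 genes 13 were not in the count table, 12 were counted but failed the low-count filter, and 3 were tested. Gdf11 was higher by 0.38 ± 0.08 on the log2 scale. Amh, the gene of anti-Müllerian hormone, was called higher at 9.13 to 32.9 normalized counts, a call that was lost with GC-corrected offsets. Bmp7, at 970.6 to 1203.3, was not called (-0.10), but it was called lower with GC-corrected offsets (-0.23), as it was when 4T1-Sca1- replicate 1 was left out (-0.14). Both were named after their values were seen.

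The receptors for activins and BMPs also changed in both directions. Among 9 tested, 5 were higher, 2 were lower and 2 were not called. Acvr1b, the type I receptor of activin, had 189.2, 235.7, 253.3 and 195.2 normalized counts across the 4T1-Sca1+ libraries against 112.7, 120.1, 110.2 and 138.1 across the 4T1-Sca1- libraries (log2 fold change 0.87 ± 0.11). Acvr2b, an activin type II receptor, was higher by 0.98 ± 0.16. The activin ligand gene Inhba was thus lower in the same libraries in which these receptor genes were higher. Acvr1 (-0.30 ± 0.06) and Bmpr1a (-0.17 ± 0.06), type I receptors that serve BMPs, were lower. The Bmpr1a call was lost under 5 of 19 alternatives: its adjusted p by edgeR was 0.0651 when offsets were corrected for GC content, 0.0583 when 4T1-Sca1- replicate 1 was left out and 0.0552 when 4T1-Sca1- replicate 4 was.

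Among the other SMADs 1 was higher and 3 were lower of 5 tested. Smad6, the inhibitory SMAD that acts mainly on BMP signals, had 116.1 to 152.6 normalized counts across the 4T1-Sca1+ libraries against 57.07 to 64.94 across the 4T1-Sca1- libraries (log2 fold change 1.07 ± 0.12), opposite in direction to Smad7. Smad4, the partner shared by all branches, was lower (-0.26 ± 0.05 on the log2 scale), as was Smad5 of the BMP branch (-0.24 ± 0.05). Smad2, the second SMAD activated by TGF-beta and named after its values were seen, was also lower (-0.23 ± 0.05), whereas Smad3 was higher.

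Of the secreted inhibitors 4 of 6 tested were called lower and 2 higher (median -0.60), beside 30.2% and 31.3% of all genes tested. Fst encodes follistatin, which binds activin, and had 29.25, 33.53, 42.89 and 30.63 normalized counts across the 4T1-Sca1+ libraries against 114.6, 99.59, 103.5 and 108.4 across the 4T1-Sca1- libraries (log2 fold change -1.64 ± 0.14). The follistatin-like gene Fstl3 (-0.47 ± 0.08) and the BMP antagonist Nog (-1.13 ± 0.24) were lower as well. So the activin subunit gene Inhba and the genes of its binding proteins Fst and Fstl3 were all lower in 4T1-Sca1+ cells. Twsg1, a modulator of BMP, was higher by 0.30 ± 0.04. Chrd, another BMP antagonist and named after its values were seen because it lies farthest out in the plot by list, was higher by 2.64 ± 0.28 at low counts, 23.76 to 33.91 against 3.42 to 5.13.

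Intracellular regulators had 4 genes higher and 8 lower of 14 tested (median -0.22). Pmepa1 and Ldlrad4, which sequester receptor-activated SMADs and are induced by TGF-beta, were lower (-0.48 ± 0.07 and -0.87 ± 0.08). The ubiquitin ligase gene Wwp1 (0.64 ± 0.06) and the SMAD corepressor gene Tgif2 (0.66 ± 0.08) were higher.

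**Figure D4:**
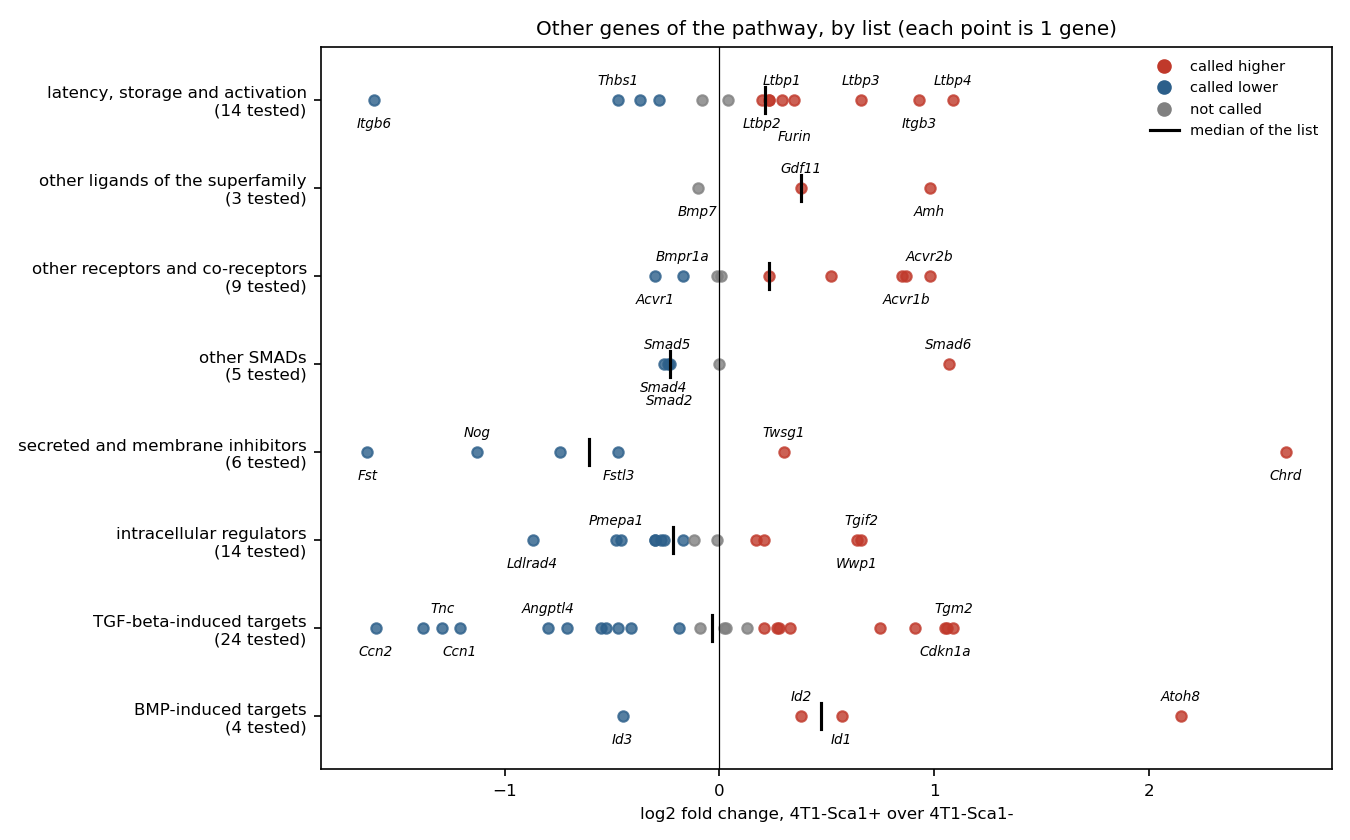
Log2 fold change (4T1-Sca1+ over 4T1-Sca1-) of the 79 tested pathway genes, 1 point per gene, in 8 lists, colored by call, with the list median as a vertical bar and the genes named in the text labelled. TGF-beta targets spread to either side of 0 with a median of -0.03, and the secreted inhibitors have the lowest median, -0.60.

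Genes that TGF-beta is known to induce did not move one way. Of 24 tested 9 were higher, 11 were lower and 4 were not called, with a median of -0.03. The lower ones included Ccn2, a matricellular growth factor, with 2885.4, 2639.9, 2727.0 and 2541.5 normalized counts across the 4T1-Sca1+ libraries against 8623.7, 8089.5, 8335.3 and 7852.0 across the 4T1-Sca1- libraries (log2 fold change -1.60 ± 0.05). Ccn1 (-1.21 ± 0.04), Tnc (-1.29 ± 0.08) and Angptl4 (-0.80 ± 0.07) were lower too. On the higher side were Tgm2, a transglutaminase, with 3687.1 to 3926.8 against 1710.4 to 1907.6 (1.09 ± 0.05), and Cdkn1a, the inhibitor of cyclin-dependent kinases, with 656.2 to 717.9 against 316.1 to 347.0 (1.05 ± 0.06). Several of these genes answer to other pathways as well.

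Among genes that BMPs induce, 3 were higher and 1 lower of 4 tested. Id1 was higher by 0.57 ± 0.08 and Id2 by 0.38 ± 0.07, while Id3, of the same family of inhibitors of differentiation, was lower (-0.45 ± 0.06). Atoh8, named after its values were seen, was higher by 2.15 ± 0.29 with 21 to 33.91 normalized counts against 3.82 to 7.79.

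Markers of other cells that a sort could carry along were summed in each library. The CD45 gene Ptprc stayed at or below 3.5 normalized counts in every library. It was below the low-count filter but separate between the fractions, with 1.83 to 3.5 in 4T1-Sca1+ against 0 to 1.11 in 4T1-Sca1- libraries. Summed leukocyte markers, of which 6 of 9 were counted, were 71.82 to 91.71 across the 4T1-Sca1+ libraries against 22.92 to 34.51 across the 4T1-Sca1- libraries, mostly from Csf1r and S100a8, while Lyz2 was at 0 in 7 of the 8 libraries. The fibroblast markers, 4 of 7 counted, summed to 552.2 to 596.6 against 347.3 to 404.5, mostly from Pdgfra. Of the other 3, all below the low-count filter, Col1a2 was at or below 7.64 in every library, while Dcn (5.98 to 13.81 against 0.96 to 1.14) and Pdgfrb (2.99 to 12.25 against 0 to 1.03) were low but separate between the fractions. Platelet markers, 4 of 4 counted, summed to 83.78 to 107.9 against 211.5 to 222.8, mostly from Ppbp, with Pf4 at or below 3.42. Endothelial markers, 5 of 6 counted, summed to 27.61 to 34.91 against 35.34 to 50.22, mostly from Tie1, whereas Pecam1 went the other way (3.5 to 6.9 against 0 to 2.05). The epithelial markers, 6 of 6 counted, reached 37729.7 to 41049.3 against 34640.0 to 36912.5, far above the other lists. This list moved both ways, with Krt8 (0.31) and Krt18 (0.38) called higher on the log2 scale, Cdh1 (-0.69) and Krt14 (-0.23) called lower, and Epcam and Krt19 not called. The part that other cells have in the differences of the 10 genes was not tested. In bulk RNA a different share of cells making a transcript and a different amount per cell cannot be told apart.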

How the data were processed

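The RNA-seq libraries, 4 of 4T1-Sca1+ cells and 4 of 4T1-Sca1- cells, were grouped by their GEO labels. The submitters' processing notes name cutadapt 1.16, STAR 2.5.3a and GRCm38/mm10. The counting tool, annotation and use of strand are not given in the sources used here. The authors deposited raw counts for 16341 genes and a normalized signal table of 15372 genes, whose values were the counts divided by DESeq2 size factors; printed normalized counts were computed in the same way. Symbols, positions and exon lengths came from GENCODE M21 (GRCm38), where 16202 genes matched and 139 did not, and promoters from RefSeq.

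Counts were tested with edgeR 4.0.16 (R 4.3.3; filterByExpr, TMM, two-sided quasi-likelihood test, no covariate), with Benjamini-Hochberg adjustment over 11717 genes and a threshold of 0.05. The fit was also run on simulated data in which far fewer genes differed than were called here. That run cannot show the error rate in these data. The alternatives were DESeq2 1.42.0, limma 3.58.1 on voom values or on log2(deposited value + 1), DESeq2 size factors, upper-quartile scaling, library totals, other count filters, GC-corrected offsets, a replicate block, a threshold of 0.01, leaving out each library, and other gene lengths. Named pathway genes were the 2 highest and 2 lowest called genes of each list whose normalized counts averaged 50 or more, and list genes in the study's signatures; others are marked as named after their values were seen. An item that this rule names is not reported here. For each of the 10 genes the 2 tested genes with the highest Pearson r of log2 CPM (prior count 2) were named. The members and lists were chosen with earlier results of these data known. Libraries carried no molecular identifiers, so read depth covers counting error only.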

Additional observations from a re-analysis of the deposited data

Results flagged for a closer look

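In each group of 4 libraries the highest and lowest values were compared with the rest of the group by Dixon's ratio. This was done for the 10 genes, the other named genes and the Tgfb3 and Inhba shares per exon length. A library lay far from the others in 12 of 100 groups. For independent groups chance gives about 1 in 20 (5.0 of 100). These groups share libraries, however. Ltbp2 and Ltbp3 were named after their values were seen, and Furin because it followed Tgfb1. The count is therefore a description and no test. Tgfb1 was at 2162.4 normalized counts in 4T1-Sca1+ replicate 3, while its group otherwise spanned 1704.6 to 1780.0. In the same library Ltbp4 was at 6601.0, above 5216.1 to 5369.2, Ltbp2 was at 8712.6, above 7672.1 to 7831.9, Ltbp3 was at 18213.1, above 14205.1 to 14738.8, and Furin was at 5974.6, above 4809.4 to 4886.1. Tgfb3 was at 919.5 in 4T1-Sca1+ replicate 1, below 1054.3 to 1076.5, and Thbs1 was at 15567.9 in that library, above 14261.9 to 14458.8. In 4T1-Sca1- replicate 2 Thbs1 was at 20845.4, above 20317.8 to 20367.9, Acvr2b was at 49.28, above 42.23 to 42.98, Angptl4 was at 1237.2, above 1130.7 to 1142.6, and Ltbp3 was at 10952.0, above 9385.0 to 9556.8. Cdkn1a was at 316.1 in 4T1-Sca1- replicate 1, below 344.0 to 347.0. None of these genes changed its direction or its call when that library was left out.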

How the results depend on the processing

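No log2 fold change of the 10 genes or of the 38 other named genes changed sign under any alternative run. Of 909 such values 894 kept their side of the threshold, 8 lost the call and 7 gained it, and these belonged to Tgfb2, Bmpr1a, Ltbp2, Amh and Bmp7. GC-corrected offsets ended the calls of Ltbp2, Amh and Bmpr1a. They were fitted around the mean of all libraries, so they can also take out real differences between the fractions that go with GC content. Tgfb2, not called at -0.32, passed the threshold with DESeq2 size factors (-0.32), with no low-count filter (-0.33) and with replicate number as a block (-0.31), and its values without 1 library ran from -0.41 to -0.24; the cause was not tested. Same-numbered libraries did not deviate together (correlations 0.0957, -0.15, -0.0339 and -0.00107), which gives no pairing, and the block left 3605 genes higher and 3452 lower among all genes tested. Gene length moved the make-up of ligands. The Tgfb3 share of TGF-beta ligands was 29.3% in 4T1-Sca1+ and 20.2% in 4T1-Sca1- cells with the longest transcript and 33.6% and 23.5% with coding length, and the Inhba share of activin subunits was 83.5% and 93.7% with coding length. Scaling shifted the median log2 fold change of all genes to at most 0.05. Among the 10 genes the fewest counts, and so the largest counting error, were those of Inhbb (336 and 248 per group) and Tgfb2 (382 and 430).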
